A study of Mus musculus with 8 samples.

Results

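Enzymes outside the cytochrome P450 family that oxidise, reduce, hydrate or methylate drugs and other foreign compounds were followed in the livers of Snd1 KO and WT mice. The set comprised 9 genes named by symbol: the flavin monooxygenases Fmo1, Fmo2 and Fmo5, the methyltransferase Inmt, the carbonyl reductases Cbr1 and Cbr3, the P450 reductase Por and the epoxide hydrolases Ephx1 and Ephx2. Every probe that the platform annotation assigns to these symbols was taken, which gave 10 of the 25697 probes on the array, for 8 of the 9 genes. Fmo5 and Cbr3 had 2 probes each. Por had 0 probes by symbol, gene ID or accession and was not analysed here.

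Liver RNA came from the left lobe of 4 KO and 4 WT male C57BL/6N mice, 8 to 12 weeks old, sampled near midday and fed, in biological quadruplicate. In the KO the first exon of Snd1 was deleted in the germline with a CAG-driven Cre, in a line made from embryonic stem cells of another strain and backcrossed to C57BL/6N. KO and WT animals were littermates of heterozygous matings. The question was how the hepatic levels of these transcripts differ without Snd1, an RNA-binding protein.

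Drug metabolism is concentrated in hepatocytes. Flavin monooxygenases sit in the endoplasmic reticulum and use NADPH and oxygen to oxygenate nitrogen and sulphur atoms of drugs and dietary compounds, without the P450 reductase. Carbonyl reductases are cytosolic and turn ketones, aldehydes and quinones into alcohols, while epoxide hydrolases add water to epoxides, which P450 enzymes often form. Inmt transfers methyl groups from S-adenosylmethionine to the amines of tryptamine and related indoles, and to sulphur and selenium compounds.

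The arrays passed a check of the labels. The Snd1 probe was detected on 0 of 4 KO arrays and on 4 of 4 WT arrays, and its level was at least 4.94-fold lower in KO livers (limma adjusted p = 2.98e-07). Detection means a detection p-value under 0.05 against the negative control beads of the array. The mean probe intensity before normalization was 215 on KO 1 and 223 on KO 4, 281 on KO 3 and 290 on KO 2, against 262 to 283 on the WT arrays, so that 2 KO arrays were dimmer. These 2 differed in detection, with 10684 probes detected on KO 1 and 11956 on KO 4, against 11446 to 12134 on the WT arrays. Levels below are log2 intensities after background correction and quantile normalization. The threshold for a call was an adjusted p of less than 0.05 in a limma fit over 8134 genes. Of these, 2.54% were called, 1.18% higher and 1.36% lower in KO livers.

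Of the 9 enzymes 7 were tested, and 4 of them rose in KO livers: Inmt 1.92-fold, Cbr1 1.73-fold, Fmo1 1.64-fold and Fmo5 1.39-fold. None fell, and Cbr3, Ephx1 and Ephx2 did not pass the test. The median log2 difference of the 7 was 0.48, beside a median of −0.0014 over all genes tested, and 6 of the 7 differences were above 0. The KO values lay above all WT values for 5 of the 7, the called genes and Cbr3, where 5.37% of all genes tested did so (10.8% did not overlap in either direction). The 9 genes were chosen with earlier results of these data known, Inmt and Cbr1 among them, so these counts are a description.

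The number of calls depended on the normalization and on single arrays. When arrays were scaled to a common median instead, 0 of the 7 were called, and the log2 differences were 0.78 for Inmt, 0.70 for Cbr1, 0.55 for Fmo1 and 0.34 for Fmo5 (limma adjusted p = 0.132, 0.24, 0.174 and 0.558). That common median was taken over all 25697 probes. Only 10684 to 12134 were detected per array, so it fell on undetected probes. With quantile normalization the count of calls was 0 without WT 2 or WT 3. It was 1 without KO 3 or WT 4 and 2 without KO 4.

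**Figure D1:**
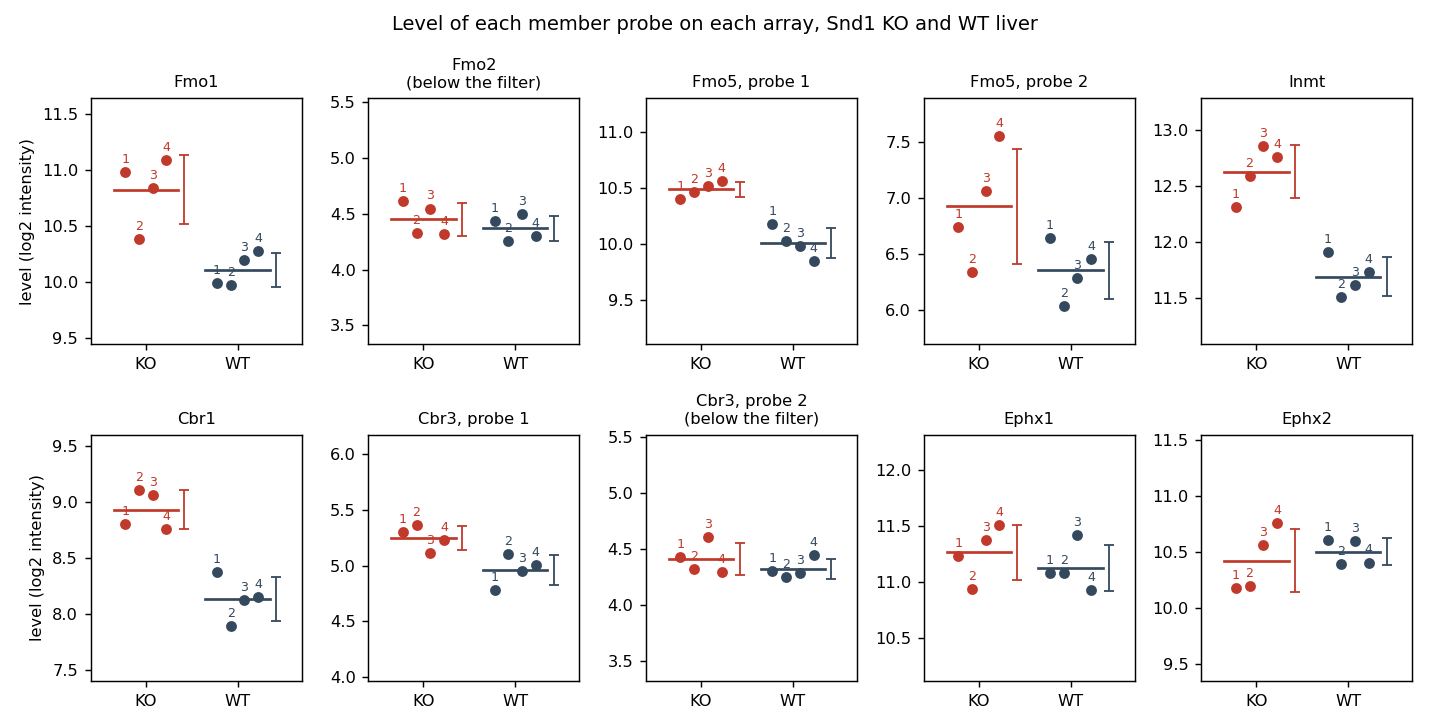
Level of each of the 10 member probes (log2 intensity, every axis spanning the same range) on 4 KO arrays (red, left) and 4 WT arrays (dark, right); digits are replicate numbers, horizontal lines are means and vertical bars are ± SD. All KO points lie above all WT points for Fmo1, Inmt, Cbr1, the first Fmo5 probe and the first Cbr3 probe.

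RefSeq promoters of the mouse assembly GRCm38.p6 were matched by symbol for 7 of the 9 genes. The 250 bases before the annotated start are shown for Inmt, Cbr1 and Fmo5, which rose, and for Cbr3, the paralog next to Cbr1 that did not pass, each 5′ to 3′ in the direction of its gene. Capitals mark TATAAA, the core of the TATA box, searched on both strands.

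Inmt (chr6:55174991-55175240, minus strand): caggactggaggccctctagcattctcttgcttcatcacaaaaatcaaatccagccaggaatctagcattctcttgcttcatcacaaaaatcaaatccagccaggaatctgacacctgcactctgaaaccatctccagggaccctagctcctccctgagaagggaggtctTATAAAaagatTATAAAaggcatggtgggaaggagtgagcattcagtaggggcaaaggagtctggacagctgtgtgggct

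Cbr1 (chr16:93607587-93607836, plus strand): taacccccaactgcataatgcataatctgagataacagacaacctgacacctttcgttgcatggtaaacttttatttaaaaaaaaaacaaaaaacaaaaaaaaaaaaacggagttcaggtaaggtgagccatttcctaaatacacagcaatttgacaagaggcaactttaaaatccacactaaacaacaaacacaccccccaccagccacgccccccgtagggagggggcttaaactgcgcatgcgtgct

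Cbr3 (chr16:93682969-93683218, plus strand): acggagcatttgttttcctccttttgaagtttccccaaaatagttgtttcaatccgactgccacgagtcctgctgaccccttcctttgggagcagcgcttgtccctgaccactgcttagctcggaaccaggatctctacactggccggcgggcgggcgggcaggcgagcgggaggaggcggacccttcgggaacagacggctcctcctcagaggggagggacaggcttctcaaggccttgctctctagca

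Fmo5 (chr3:97628769-97629018, plus strand): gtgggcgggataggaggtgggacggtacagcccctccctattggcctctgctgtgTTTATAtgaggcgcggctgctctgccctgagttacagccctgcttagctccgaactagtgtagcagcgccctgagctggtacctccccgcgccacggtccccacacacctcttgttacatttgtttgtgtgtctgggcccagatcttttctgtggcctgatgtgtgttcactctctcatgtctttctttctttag

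The letters TATAAA occurred 2 times before the start of Inmt, the nearer beginning 69 bases before it, and 1 time, on the opposite strand, before that of Fmo5. They also occurred 1 time before the start of Ephx1, which was not called, and did not occur in the windows of Cbr1, Cbr3, Fmo2 and Por. Of 32851 promoter windows of the same length 12.4% held them. The Inmt window also carried a stretch of 46 bases that is repeated without a gap or mismatch directly after itself, and 0.198% of all windows held an exact repeat without overlap of at least that length. The core of the antioxidant response element (TGACNNNGC, both strands), the site of the oxidant-sensing factor NRF2, occurred 0 times in the windows of the 7 genes and in 10.2% of all windows. These are matches of letters in a short window, and binding was not measured. TATAAA and the repeat were looked at after the sequences had been seen.

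Inmt showed the largest difference among the 7 genes. Its levels were 12.31, 12.59, 12.86 and 12.76 on KO 1 to KO 4, against 11.91, 11.51, 11.62 and 11.74 on WT 1 to WT 4. The lowest KO array, KO 1, lay 0.41 above the highest WT array, WT 1. The mean was 12.63 ± 0.24 in KO livers and 11.69 ± 0.17 in WT livers (SD, n = 4 each), a log2 difference of 0.94 ± 0.14 SE (limma adjusted p = 0.0105). Inmt ranked 40 by p among the 8134 genes. Its call was lost without WT 2 (adjusted p = 0.051) and without WT 3 (adjusted p = 0.0575), and held without any other 1 array. In the gene table Inmt lies on chromosome 6, as Snd1 does. The KO allele came from embryonic stem cells of another strain. Whether linked sequence of that strain affected the level of Inmt or the binding of its 1 probe was not tested.

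Cbr1 reduces quinones, anthracycline drugs and prostaglandins. Its levels were 8.81, 9.11, 9.06 and 8.76 on KO 1 to KO 4, against 8.38, 7.90, 8.13 and 8.16 on WT 1 to WT 4. All KO arrays lay above all WT arrays, with WT 1 nearest to the KO arrays. The mean was 8.93 ± 0.18 in KO livers and 8.14 ± 0.20 in WT livers (SD, n = 4 each), and the log2 difference was 0.79 ± 0.13 SE (limma adjusted p = 0.0181). The call was lost without KO 3, WT 2, WT 3 or WT 4 (adjusted p up to 0.0755). Without background correction the difference was 0.66 and was still called.

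Cbr3, the closest relative of Cbr1 in this set and its neighbour among the protein-coding genes of chromosome 16, had lower signals near the detection limit. Its first probe was detected on all 8 arrays, at 5.30, 5.36, 5.11 and 5.23 on KO 1 to KO 4, against 4.78, 5.10, 4.95 and 5.003 on WT 1 to WT 4. The KO values lay above the WT values by a narrow margin, with KO 3 just over WT 2. The log2 difference was 0.29 ± 0.11 SE and did not pass (limma adjusted p = 0.208), with a 95% interval of 0.04 to 0.54, and it was 0.09 without background correction. The second Cbr3 probe was detected on 1 KO array and 1 WT array and was below the filter, which asked for detection on at least 4 of the 8 arrays. Cross-hybridisation between these paralogs was not tested, so the array values of Cbr1 and Cbr3 are uncertain as those of separate genes. The study also listed Cbr1 as higher in KO livers by RNA sequencing, and that sequencing was not analysed here.

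Fmo1 is a principal drug-oxygenating flavin monooxygenase of mouse liver, with higher levels in females than in males. Its levels in these males were 10.99, 10.39, 10.84 and 11.09 on KO 1 to KO 4, against 9.99, 9.98, 10.20 and 10.28 on WT 1 to WT 4. The groups did not overlap, and KO 2 lay only 0.11 above WT 4 while the other KO arrays lay further up. The mean was 10.83 ± 0.31 in KO livers and 10.11 ± 0.15 in WT livers (SD, n = 4 each), with a log2 difference of 0.71 ± 0.16 SE (limma adjusted p = 0.0433). That p is close to the threshold, and the call was lost without KO 3, KO 4, WT 1, WT 2, WT 3 or WT 4 (adjusted p up to 0.142). It was also lost on the authors' processed values and when no background was corrected (adjusted p = 0.0508 in both) and without the detection filter (adjusted p = 0.0923).

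Fmo5 oxygenates ketones to esters and shares few substrates with the other flavin monooxygenases. On its first probe the levels were 10.40, 10.47, 10.52 and 10.57 on KO 1 to KO 4, against 10.18, 10.03, 9.99 and 9.84 on WT 1 to WT 4. The KO arrays lay within a narrow range above all WT arrays. The mean was 10.49 ± 0.07 in KO livers and 10.01 ± 0.14 in WT livers (SD, n = 4 each), and the log2 difference was 0.48 ± 0.11 SE (limma adjusted p = 0.0448). The call was lost without KO 2, KO 3, KO 4, WT 2, WT 3 or WT 4 (adjusted p up to 0.155).

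The second Fmo5 probe gave a similar difference with a wider spread. It read 6.75, 6.34, 7.07 and 7.56 on KO 1 to KO 4, against 6.64, 6.04, 6.29 and 6.46 on WT 1 to WT 4, and here the groups overlapped. In a limma fit over the 10945 kept probes, of which 1.22% were called higher in KO livers, its log2 difference was 0.57 ± 0.23 SE and did not pass (adjusted p = 0.236), while the first probe was called (adjusted p = 0.0467). With the mean of both probes as the level of Fmo5 the difference was 0.53 (adjusted p = 0.101). The second probe was highest on KO 4, as were the first probe and Fmo1.

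Fmo2, best known from lung, was detected on 1 KO array (KO 3) and 1 WT array (WT 3). Its probe read 4.32 to 4.61 on the KO arrays and 4.26 to 4.49 on the WT arrays, at the level of the negative controls, and a difference was not detectable at this signal. In the gene table Fmo2 follows Fmo1 on chromosome 1 and Fmo4 precedes it. Fmo4, also tested, had a log2 difference of 0.27 ± 0.19 SE (limma adjusted p = 0.504).

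The epoxide hydrolases did not pass the test. Ephx1, the microsomal enzyme that acts on epoxides of drugs and aromatic hydrocarbons, read 11.23, 10.94, 11.38 and 11.51 on KO 1 to KO 4, against 11.08, 11.08, 11.42 and 10.94 on WT 1 to WT 4. The groups overlapped over most of their range, and the log2 difference was 0.14 ± 0.15 SE (limma adjusted p = 0.696), with a 95% interval of −0.20 to 0.47. Ephx2, the soluble enzyme that turns epoxy fatty acids into diols, read 10.18, 10.19, 10.55 and 10.75 on KO 1 to KO 4, against 10.61, 10.39, 10.60 and 10.40 on WT 1 to WT 4. Here KO 1 and KO 2 lay below all WT arrays and KO 4 above them. The log2 difference was −0.08 ± 0.15 SE (limma adjusted p = 0.831), with a 95% interval of −0.41 to 0.25. Each interval ended below the point estimate of Cbr1 and of Inmt, but differences between genes were not tested.

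**Figure D2:**
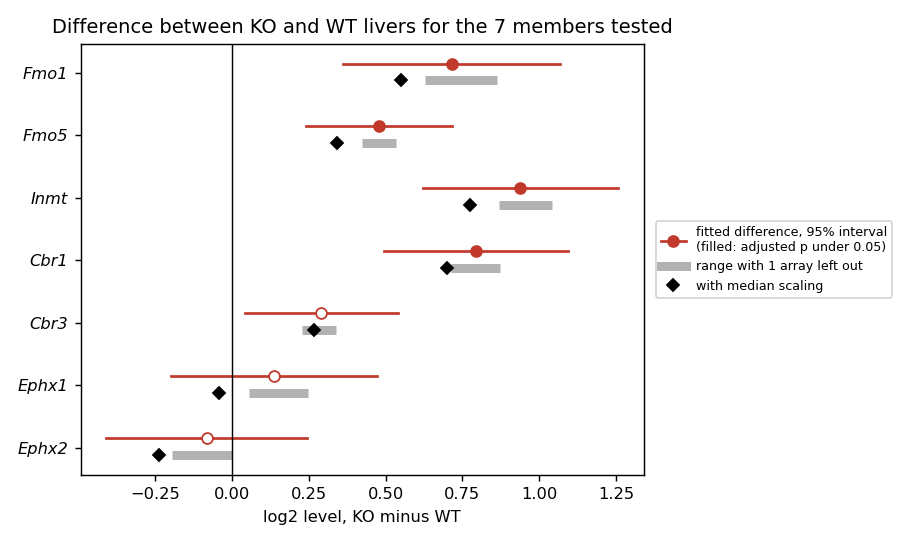
Log2 level of KO minus WT for the 7 members tested (x axis), with the fitted difference and its 95% interval (red), the range with any 1 array left out (grey bar) and the value with median scaling (black diamond). Inmt, Cbr1, Fmo1 and Fmo5 (filled) were called, and their intervals and ranges lie above 0.

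The enzymes did not share the same order of KO animals. Of the 8 kept probes 5 were highest on KO 4 among the KO arrays: Fmo1, both probes of Fmo5, Ephx1 and Ephx2. Cbr1 and Cbr3 were highest on KO 2, where Fmo1 and Ephx1 were lowest, and Inmt was highest on KO 3. Relative to the mean of the WT arrays, Fmo1 stood at 0.28 on KO 2 and 0.98 on KO 4, while Cbr1 stood at 0.97 on KO 2 and 0.62 on KO 4. Averaged over the 4 called genes the arrays stood at 0.64 (KO 1), 0.65 (KO 2), 0.83 (KO 3) and 0.80 (KO 4) on the log2 scale, against 0.13 on WT 1, the highest WT array, and −0.14 on WT 2, the lowest.

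**Figure D3:**
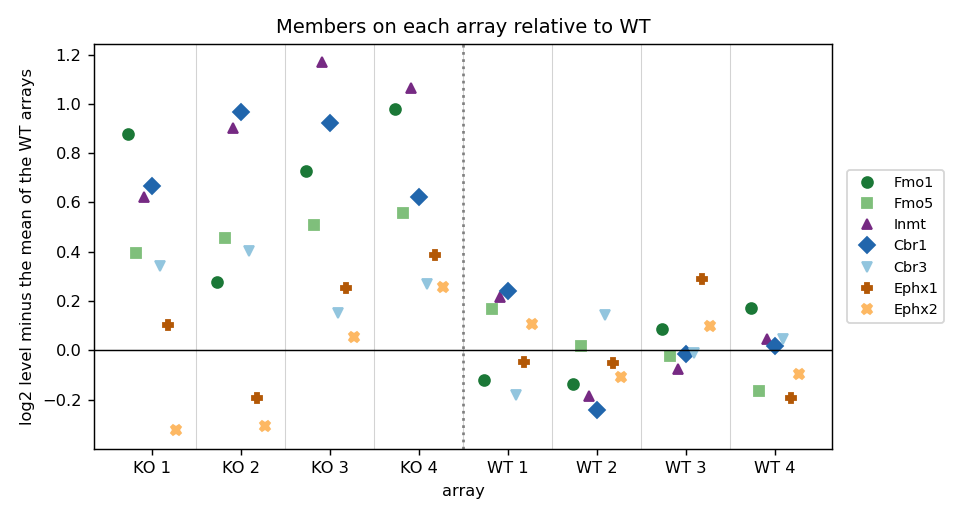
Log2 level of the 7 tested members on each array minus the mean of the 4 WT arrays for the same gene (y axis), with KO arrays at left and WT arrays at right of the dotted line. Inmt, Cbr1, Fmo1 and Fmo5 lie above 0 on every KO array, and Ephx2 lies at −0.32 and −0.31 on KO 1 and KO 2 and at 0.26 on KO 4.

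Before normalization, with KO 1 and KO 4 dimmer than the other arrays, the separation was smaller. In the unprocessed intensity only Fmo1 kept all KO arrays (1558 to 2163) above all WT arrays (1070 to 1397). Inmt read 4148, 7137, 8194 and 5515 on KO 1 to KO 4, against 4458, 2942, 3358 and 3734 on WT 1 to WT 4, so KO 1 lay below WT 1. Cbr1 read 395, 731, 701 and 418 on KO 1 to KO 4, against 431, 309, 352 and 365 on WT 1 to WT 4, so both dim KO arrays lay below WT 1. Without KO 1 and KO 4, Inmt (log2 difference 1.02, limma adjusted p = 0.00854) and Cbr1 (0.95, adjusted p = 0.0112) were called, and Fmo1 (0.50, adjusted p = 0.14) and Fmo5 (0.48, adjusted p = 0.0821) were not.

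Genes with the pattern nearest to that of each called enzyme were found by the root mean square difference, over the 8 arrays, of the log2 level minus the WT mean. For Inmt these were Vcam1, an endothelial adhesion molecule (0.11), the fumarase Fh1 (0.12) and the metalloproteinase inhibitor Timp3 (0.14), where the median over all genes was 0.71. For Cbr1 they were Tm6sf2, a protein of lipoprotein assembly (0.11), the lanosterol synthase Lss (0.11) and the ornithine decarboxylase Odc1 (0.15). Likeness to a called gene builds in a higher level in KO livers, so the differences of these genes (0.61 to 0.93 on the log2 scale) are a description. The calls of Vcam1 and Odc1 ended without KO 2, KO 3, KO 4, WT 2, WT 3 or WT 4. The genes nearest to Fmo1 were Hnrnpf, a splicing factor (0.13), Amigo2, an adhesion protein (0.14), and the oxysterol hydroxylase Cyp39a1 (0.14), and those nearest to Fmo5 were Serp1, an endoplasmic reticulum membrane protein (0.05), Hpd, an enzyme of tyrosine breakdown (0.06), and the ubiquitin ligase Pja2 (0.08). Of these 6 genes Cyp39a1, Hpd and Pja2 were not called (limma adjusted p = 0.169, 0.0593 and 0.0686).

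Related enzymes were read from lists chosen by function, and each count at an unadjusted p under 0.05 stands beside 17.4% of all 8134 genes at that level. Of 9 tested genes listed as methyltransferases of small molecules 0 were called by limma. The arsenite methyltransferase As3mt (log2 difference 0.82 ± 0.21 SE, adjusted p = 0.0655), the nicotinamide methyltransferase Nnmt (0.76 ± 0.24, adjusted p = 0.139) and Gnmt, which methylates glycine (0.33 ± 0.12, adjusted p = 0.17), had the lowest p. The list median was 0.15, and 5 of the 9 lay above 0. Of 11 tested carbonyl and aldo-keto reductases beside Cbr1 and Cbr3 0 were called, and the lowest p were those of Dhrs7 (0.34 ± 0.12, adjusted p = 0.185), Akr1c19 (0.47 ± 0.22, adjusted p = 0.305) and Akr1c12 (0.33 ± 0.17, adjusted p = 0.353), with a list median of 0.08. At an unadjusted p under 0.05 the counts were 6 of the 9 genes of the methyltransferase list, in both directions, and 1 of the 11 reductases. The 6 include Ethe1 (−0.60, limma adjusted p = 0.209), which is a sulphur dioxygenase and not a methyltransferase.

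Of 11 tested genes listed for electron transfer to P450 enzymes and related redox reactions 0 were called by limma, with 2 at an unadjusted p under 0.05, a share near the 17.4% of all genes. The quinone reductase Nqo2 (log2 difference 0.47 ± 0.12 SE, adjusted p = 0.0655), the haem oxygenase Hmox2 (−0.32 ± 0.12, adjusted p = 0.183) and the squalene epoxidase Sqle (0.17 ± 0.10, adjusted p = 0.392), which takes its electrons from Por, had the lowest p. Nqo2 was called in 6 of 20 alternatives and not in the other 14. Its limma adjusted p was 0.0353 with the mean of its probes and 0.609 with median scaling. Among esterases, oxidases and dehydrogenases 1 of 23 rose and 0 fell: Maob, the mitochondrial monoamine oxidase B (0.72 ± 0.13, adjusted p = 0.0227), beside a list median of 0.03. In that list 7 genes, in both directions, had an unadjusted p under 0.05. Among 19 glucuronidation, sulphation and acetylation genes 2 rose and 1 fell. The gene that fell was the sulphotransferase Sult5a1 (−1.39 ± 0.20, adjusted p = 0.0086), and those that rose were Papss1, which makes the sulphate donor (1.34 ± 0.22, adjusted p = 0.0158), and the phenol sulphotransferase Sult1a1 (0.90 ± 0.16, adjusted p = 0.0227). That list had a median of 0.16, with 5 of its 19 genes, in both directions, at an unadjusted p under 0.05. Sult5a1 read 4.46 to 5.13 in KO livers, close to the negative controls, and 5.83 to 6.64 in WT livers, and the size of its difference depended on the background correction: it was −0.80 at an offset of 50 and −0.55 with no correction or on the authors' processed values. Its call held in these settings and without any 1 array. The calls of Maob, Papss1 and Sult1a1 ended without KO 3, WT 2, WT 3 or WT 4 (adjusted p up to 0.0915, for Maob, which also lost it without KO 4). With median scaling they ended too (adjusted p = 0.253 for Maob, 0.0552 for Papss1 and 0.167 for Sult1a1), and without the detection filter those of Papss1 (0.0541) and Sult1a1 (0.0573) ended.

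Receptors and factors that control drug metabolism were tested for 14 genes, and 0 were called by limma, with 2 at an unadjusted p under 0.05, also near the 17.4% of all genes. The coactivator Ppargc1a (log2 difference 0.66 ± 0.27 SE, adjusted p = 0.234), Nr1i2, the pregnane X receptor (0.47 ± 0.21, adjusted p = 0.268), and Nr1h4, the bile acid receptor (−0.26 ± 0.13, adjusted p = 0.343), had the lowest p, and the list median was −0.0091. Of 6 other genes listed for epoxide hydrolysis 3 had a probe and 1 was tested, Mest, a hydrolase-fold protein of the endoplasmic reticulum (0.12 ± 0.12, adjusted p = 0.653).

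**Figure D4:**
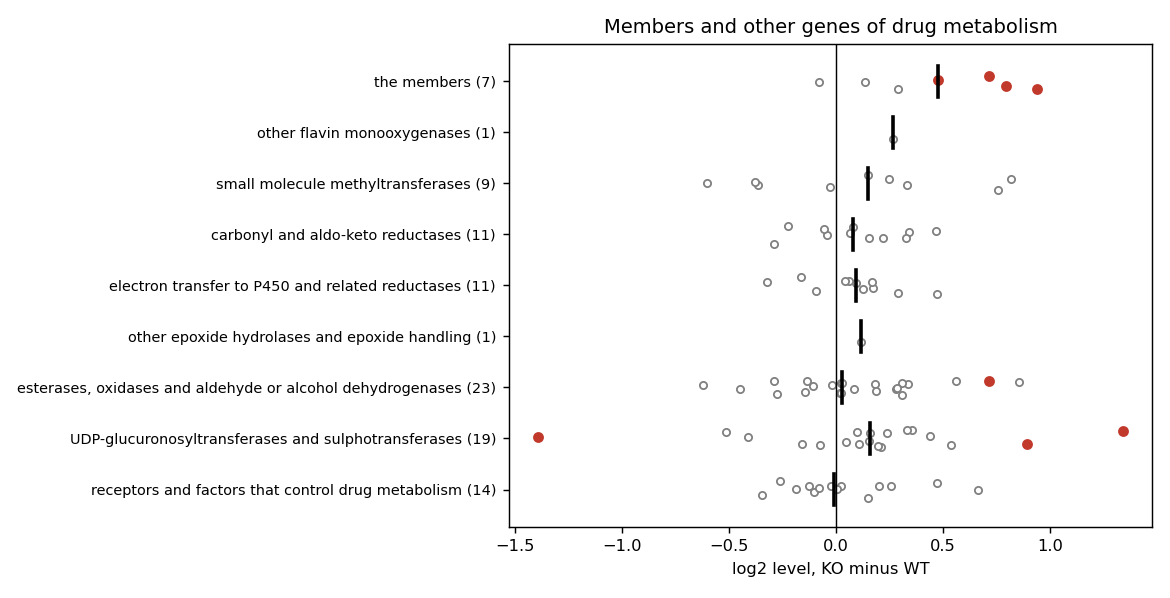
Log2 level of KO minus WT for each tested gene (points) of the 7 members and of 8 lists of related genes (rows, with the number tested), with called genes in red and the median of each list as a black bar. The members have a median of 0.48 and the lists with more than 1 gene have medians of −0.0091 to 0.16.

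Markers of liver cell types were read beside these values. RNA came from whole tissue, so fewer cells of a type and less RNA per cell cannot be told apart. Of 10 hepatocyte markers 8 were tested and 0 were called by limma, with 1 at an unadjusted p under 0.05, where 17.4% of all genes were (median log2 difference 0.07, 7 above 0), and their summed intensity was 73535 to 81867 in KO livers and 66766 to 71305 in WT livers. The lipoprotein gene Apoa1 read 14.01 in KO livers and 13.92 in WT livers. The Alb probe, for albumin, read 4.80 in KO livers and 4.63 in WT livers, near the negative controls. Kupffer cell and macrophage markers were below 0 in 10 of 10 tested, with 0 called, 4 at an unadjusted p under 0.05 and a median of −0.43 (sums 3057 to 4513 in KO livers and 3681 to 6014 in WT livers). Stellate cell and fibroblast markers were above 0 in 8 of 8 tested, with 3 at an unadjusted p under 0.05 and a median of 0.26 (sums 3138 to 4452 in KO livers and 2829 to 3081 in WT livers). The smooth muscle actin Acta2 rose (1.04 ± 0.23 SE, limma adjusted p = 0.0425), a call lost without KO 2, KO 3, KO 4, WT 2, WT 3 or WT 4, with median scaling (adjusted p = 0.145), without the detection filter (0.116) and under other background corrections. Of leukocyte markers 2 of 10 were tested and 0 called, both below 0 with a median of −0.88, the farthest from 0 of all the lists: the neutrophil calprotectin genes S100a8 (−1.22 ± 0.45 SE, unadjusted p = 0.0214, limma adjusted p = 0.194) and S100a9 (−0.54 ± 0.30, adjusted p = 0.386). Endothelial markers (9 tested, median 0.10) had 2 genes at an unadjusted p under 0.05, Lyve1 (0.96) above 0 and Stab2 (−0.24) below it. Cholangiocyte markers (3 tested, median 0.29) also had 2, in opposite directions, Krt8 (0.37) and Sox9 (−0.41). Erythroid markers (2 tested, median −0.34) had 0 at that level. Each of these lists had 0 calls. Among zonation markers the pericentral ammonium transporter Rhbg fell (−0.88 ± 0.17 SE, limma adjusted p = 0.0284) and the periportal urea cycle enzyme Ass1 rose (0.66 ± 0.11, adjusted p = 0.0181), while the list medians were −0.05 over 8 pericentral and 0.12 over 7 periportal genes. Members of both lists went either way. At an unadjusted p under 0.05 were 3 pericentral genes, all lower in KO livers, and 3 periportal genes, of which Ass1 and Asl were higher and Cyp2f2 (−0.44, limma adjusted p = 0.0655) was lower. The pericentral genes Glul (−0.52, adjusted p = 0.0783) and Axin2 (−0.65, adjusted p = 0.0883) lay below 0 and Oat (0.41, adjusted p = 0.293) above it. Asl, Cyp2f2, Glul, Axin2 and Oat were named after their values had been seen. Without KO 3, WT 2, WT 3 or WT 4 the calls of Rhbg and Ass1 ended, that of Rhbg also without KO 2, KO 4 or the detection filter, and that of Ass1 with median scaling (adjusted p = 0.273). The part of these cell type and zonation values in the rises of Inmt, Cbr1, Fmo1 and Fmo5 was not tested.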

How the data were processed

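Liver RNA of 4 KO and 4 WT mice was hybridised to Illumina MouseRef-8 v2.0 arrays, and groups were read from the sample titles. The authors deposited bead-averaged probe intensity that was not normalized, on a linear scale from 75.2 to 22138, with a detection p-value deposited for each probe and array, and processed intensity values with nearly equal array medians (92.8 to 92.9), made by a method that the sources used here do not give. The processed values gave nearly the same results as quantile normalization without background correction (Fmo1 0.680 and 212 genes called with each), so these are not separate checks. In R 4.3.3 with limma 3.58.1 the unprocessed intensity was background-corrected with normexp (negative control moments from the detection p-values, offset 16), quantile normalized over the 8 arrays and put on the log2 scale. The offset shrinks differences of dim probes, and quantile normalization hides a change in total RNA.

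Named probes detected (p-value below 0.05) on 4 or more arrays were kept (10945 of 25697), and each gene was read from its kept probe with the highest mean (8134 genes). KO was compared with WT in limma (lmFit and eBayes, 2-sided, no covariate) with Benjamini-Hochberg adjustment over all genes. Log2 differences are KO minus WT. The code was tested on simulated data. No 2 arrays held identical values, and the correlation between 2 arrays over genes was 0.957 to 0.993. The number of arrays limits the precision. Each p-value sets the KO minus WT difference against the spread between these animals, which limma moderates with that of all genes. A bound for an undetected group compares the mean of the detected group with, on each array, the larger of the probe's signal and the weakest signal that counted as detected.

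The members and the lists were chosen with earlier results of these data known. The text names all members, Snd1, the called members of each functional or marker list or otherwise up to 3 with the lowest p, and for each called member the 3 genes with the nearest pattern. Alternatives were other background corrections, scalings, filters, probes, weights, a replicate block and fewer arrays. The gene table (GRCm38.p6) gave names, chromosomes and neighbours. The probe annotation named 23978 probes.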

Additional observations from a re-analysis of the deposited data

How the results depend on the processing

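The 4 calls among the 7 members tested became 0 with median scaling, 1 with the replicate number as a block, and 2 without KO 1 and KO 4. With any 1 array left out the count was 0 to 4, and the log2 differences of Inmt, Cbr1, Fmo1 and Fmo5 stayed above 0 under all 20 alternatives run for each gene. Several of these could not move the difference. The detection filters and the replicate block left it unchanged, as did the choice of probes for genes with 1 probe. The authors' processed values and the values without background correction gave nearly the same differences. Over all genes the 207 calls became 97 with median scaling, 96 without the detection filter, 92 with the replicate block and 2190 with array weights, and they were 38 to 511 with 1 array left out (38 without WT 3, 511 without KO 1). With median scaling 14.4% of the calls were higher in KO, against 46.4% with quantile normalization, and the median of all genes moved to −0.05. Ephx1 turned to −0.042 with median scaling. Ephx2 turned to 0.034 with array weights, and with 1 array left out it was −0.19 (without KO 4) to 0.0019 (without KO 1). Neither gene was called in these settings, and the cause of these changes was not tested.

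The labels do not say whether the replicate numbers pair the animals. Correlations of deviations from the group means between same-numbered arrays were 0.09, −0.09, 0.12 and −0.0098 for replicates 1 to 4, and 2 of the 4 KO arrays correlated best with their own number. So few arrays cannot decide whether same-numbered animals shared a litter or a batch. With the replicate block the adjusted p (limma) was 0.0433 for Inmt, 0.0631 for Cbr1, 0.058 for Fmo1 and 0.124 for Fmo5. The signal of Fmo2 lay at the negative controls. Cbr3 was detected but dim, and the size of its difference depended on the background correction. The log2 difference of Cbr3 was 0.29 at the offset of 16, 0.15 at 50 and 0.09 with no correction.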
